A study of Mus musculus with 8 samples.

Results

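The adrenomedullin and CGRP receptor system was taken as 7 genes: the receptor gene Calcrl, the receptor partners Ramp1, Ramp2 and Ramp3, and the peptide genes Adm, Calca and Calcb. Its members were the array probes that carry 1 of these gene names, 11 of 55660 probes, and the system was chosen on a measured value, because Calcrl was lower in the knockout lungs of these same samples. The arrays named 36085 genes in all. The differences between genotypes in these 7 genes are therefore given as a description, with their errors, and no test is read from them. The lungs came from C57BL/6 mice that were wild-type or carried a lung-restricted knockout of Ggps1, and every mouse, control or knockout, had received lipopolysaccharide (LPS) 12 h earlier. Ggps1 encodes geranylgeranyl diphosphate synthase, which makes a lipid anchor of small GTPases, and LPS is a component of the bacterial outer membrane that injures the lung. Each group held 4 mice, and total RNA of the whole lung of each mouse went onto a separate Agilent array in a single colour. The sources used here do not give the promoter or cell type that drove the deletion, and mice without LPS were not analysed here.

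Calcrl encodes a G protein-coupled receptor of the secretin family that reaches the cell surface together with a single-pass RAMP protein. With RAMP1 it forms the receptor for calcitonin gene-related peptide (CGRP), and with RAMP2 or RAMP3 it forms receptors for adrenomedullin. Activated receptors act mainly through Gs and cyclic AMP. Adrenomedullin dilates vessels and tightens the endothelial barrier, and mice lacking Adm, Calcrl or Ramp2 develop oedema before birth. CGRP is a vasodilator of sensory nerves and of pulmonary neuroendocrine cells.

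The share of spots well above background lay between 58.0% and 65.2% on the 8 arrays. It averaged 63.5% ± 1.8 (SD, n = 4) for wild-type and 59.7% ± 1.5 (SD, n = 4) for knockout lungs, two-sided exact permutation p = 0.0571. The share of probes at a surrogate value, which the scanner software gives to a signal it cannot tell from background, averaged 17.4% ± 2.2 (SD, n = 4) for wild-type lungs and 23.2% ± 1.7 (SD, n = 4) for knockout lungs, two-sided exact permutation p = 0.0286, the smallest this design allows. The 8 arrays lay on 1 slide, wild-type samples in row 1 and knockout samples in row 2, so slide row and genotype cannot be told apart. A gene was tested when a probe was well above background on at least 3 of the 4 arrays of a group, and 24437 genes were. All 10 lung identity genes, among them those of the surfactant proteins and of the club cell protein Scgb1a1, passed this filter. All levels below are log2 signal after the 75th percentile of each array was set to 0. On this scale Ggps1 itself averaged 1.32 ± 0.070 (SD, n = 4) in wild-type lungs against 1.26 ± 0.044 (SD, n = 4) with the knockout. The sources used here do not say which part of Ggps1 was deleted, so this value does not check the labels.

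The probes decide what each value can show, so the first 30 of their 60 bases are printed for the genes on which the results turn, and for the CGRP-type probe of Calca bases 21 to 50. Calcrl has a single probe, at mm9 chromosome 2, 84173073 to 84173132, on the minus strand. The pair of Ramp3 probes (chromosome 11, 6577416 to 6577475 and 6577424 to 6577483) share 52 bases, the shared part being in capitals, and are not separate evidence. The Calca probes read different ends of the gene. One (chromosome 7, 121776948 to 121777007) belongs to transcript variant 1, which encodes calcitonin, and the other (121775204 to 121775263) to transcript variant 2, which encodes CGRP and whose polyadenylation hexamer is in capitals. The brightest Ramp1 probe joins sequence from 93093453 to 93119708 on chromosome 1 and so lies across a splice junction. No gene annotation of mm9 was used here, so exon and UTR positions are not given.
Calcrl, A_52_P58949: cactttaaccctctttataacttctcttgt
Ramp3, A_55_P2101340: tgagtgtgCTCAAGGGTTCTGTCTGCTGAT
Ramp3, A_55_P1954835: CTCAAGGGTTCTGTCTGCTGATGTCAGTTC
Calca variant 1, A_55_P2139942: aagaatggtatctgaaatccccagtgggtg
Calca variant 2, A_52_P154101: gtgactctgtatccAATAAAcatgacagca
Ramp1, A_51_P348665: agacgctatggtgtgactggggaaagacca

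Calcrl, the receptor shared by both peptides, was 2.68-fold lower on average in the knockout lungs. Its level was -0.40, -1.40, -0.46 and -1.08 in the wild-type lungs, in the order of replicates 1 to 4 used throughout, and -1.96, -2.60, -1.92 and -2.56 in the knockout lungs. The lowest wild-type lung stood above the highest knockout lung. The means were -0.84 ± 0.49 and -2.26 ± 0.37 (SD, n = 4 per group), so that knockout minus wild-type came to -1.42 ± 0.27 (SE of the limma fit). Of all genes tested, 88 had a difference at least this far below 0, Calcrl included. With normexp background correction, which raises dim signals, the difference was -1.08. Whole lung was measured, so fewer cells that express a gene and less of its RNA per cell cannot be told apart, for Calcrl or any gene that follows.

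The RAMP partners differed from the receptor and from each other. Ramp3, a partner for adrenomedullin, was 2.18-fold higher in the knockout lungs. The level at its brighter probe was 1.098, 1.13, 0.80 and 1.67 for wild-type and 2.26, 1.91, 2.06 and 2.98 for knockout mice. Every knockout lung lay above every wild-type lung, knockout replicate 4 being the highest. The difference was 1.13 ± 0.26, and that of the overlapping second probe was 1.098 ± 0.27 (SE). Ramp2, the main endothelial partner, read 6.82, 5.66, 6.46 and 6.29 in wild-type and 6.70, 5.96, 7.03 and 5.98 in knockout lungs. The groups overlapped over nearly their whole range, and the difference of 0.11 ± 0.32 (SE) was smaller than the spread between replicates.

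Whether the groups overlapped at Ramp1, the CGRP partner, depended on the probe. The brightest probe, across the splice junction, gave -0.54, 0.65, -0.08 and -0.34 for wild-type and -0.41, 0.29, 0.18 and -0.22 for knockout mice, a difference of 0.04 ± 0.27 (SE). These groups overlapped. The probe of transcript variant 3 (chromosome 1, 93103294 to 93103353), which lies inside the stretch that the junction probe skips, ran from -2.15 to -1.91 in wild-type and from -2.49 to -2.17 in knockout lungs. Its groups did not overlap, with a difference of -0.26 ± 0.10 (SE). The third probe (93121428 to 93121487) was well above background on 2 wild-type arrays and 1 knockout array and did not pass the filter.

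Among the peptide genes, Calca was higher in the knockout lungs at both of its transcript ends, and Adm was not apart between the groups. The CGRP-type probe of Calca gave -1.77, -1.02, -1.32 and -1.13 for wild-type and -0.79, -0.52, -0.11 and 0.45 for knockout mice. All knockout lungs lay above all wild-type lungs, and the difference was 1.06 ± 0.29 (SE), or 2.09-fold. The calcitonin-type probe read 0.13, 1.04, 0.62 and 0.81 in wild-type and 1.099, 1.43, 2.47 and 1.84 in knockout lungs. Here the groups only just failed to meet, wild-type replicate 2 and knockout replicate 1 being neighbours, and the difference was 1.06 ± 0.31 (SE). The highest knockout lung was replicate 4 with the first probe and replicate 3 with the second.

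Adm, which encodes adrenomedullin and its sister peptide PAMP, read 3.33, 3.71, 4.18 and 3.86 in wild-type and 3.50, 3.47, 4.24 and 2.98 in knockout lungs (chromosome 7, 117773088 to 117773147). Knockout replicates 3 and 4 were the highest and the lowest of all 8 samples. The difference was -0.22 ± 0.28 (SE), within the spread between replicates. Calcb, the gene of β-CGRP, was well above background on 1 wild-type array (replicate 3, at -4.64) and 1 knockout array (replicate 4, at -4.57), did not pass the filter and has no fold to give.

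**Figure D1:**
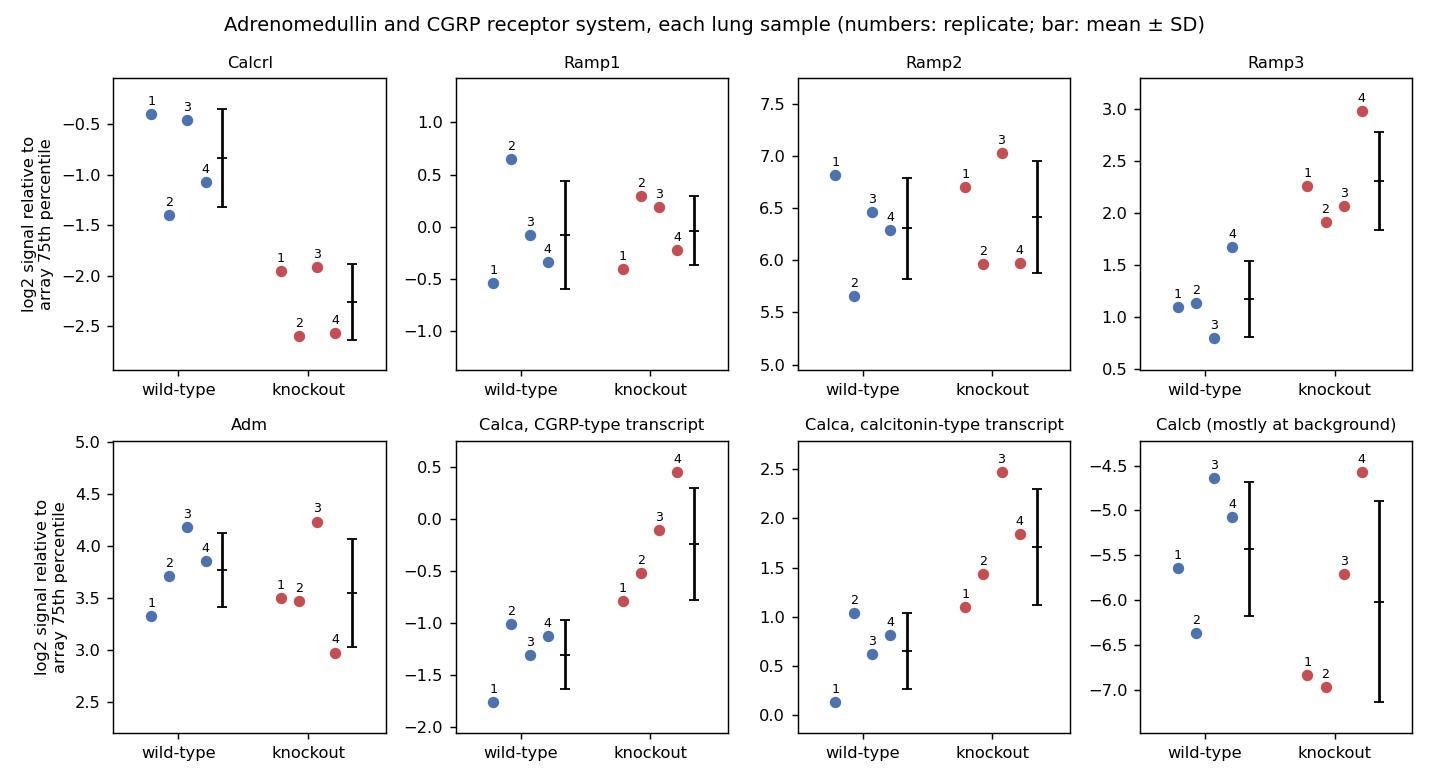
Log2 signal, with the 75th percentile of each array at 0 (y axis, a separate range in each panel) in wild-type (blue) and knockout (red) lungs, 1 point per mouse with its replicate number and mean ± SD beside it. Calcrl is lower and Ramp3 and both Calca transcripts are higher in all 4 knockout lungs than in any wild-type lung, while the groups overlap at the brightest Ramp1 probe and at Ramp2, Adm and Calcb.

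Of the 7 genes, 6 passed the filter and so stood in the fit across all genes. With limma and Benjamini-Hochberg adjustment, 0 of these 6 were past the threshold of 0.05, beside 0.0614% of all genes, made up of 8 genes that rose (0.0327%) and 7 that fell (0.0286%). Of all genes tested, 10.1% on the higher and 13.5% on the lower side reached an unadjusted p under 0.05, which is the background for the lists described further on. The groups did not overlap for 2 members on the higher side (Ramp3 and Calca) and 1 on the lower side (Calcrl), where 6.08% and 9.26% of all genes tested did the same. The contrast was used to choose the system, so nothing is read from these counts.

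**Figure D2:**
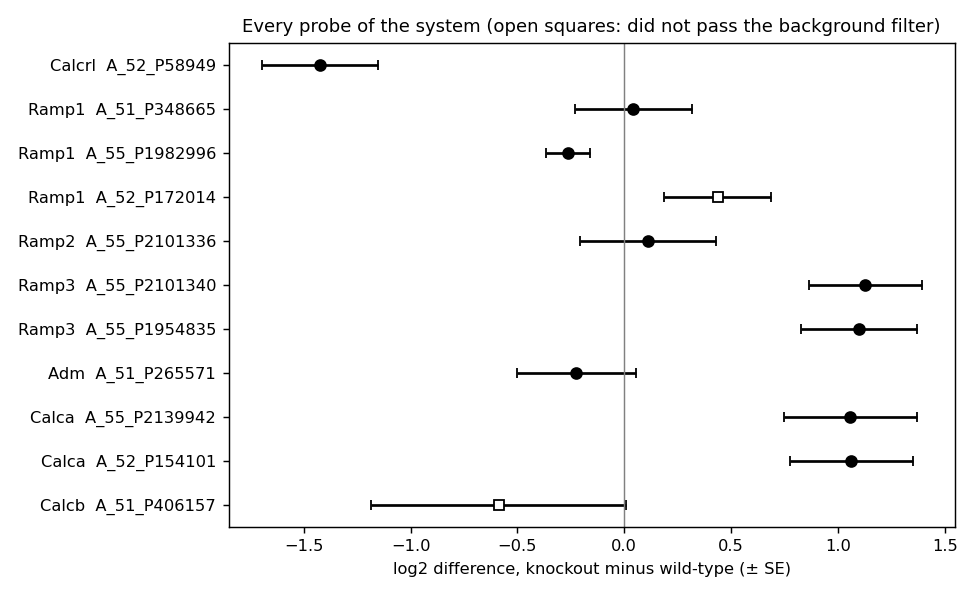
Log2 difference, knockout minus wild-type (x axis), of each of the 11 probes with its standard error. For a probe that did not represent its gene, the error comes from a separate fit over all probes. The Calcrl probe lies at -1.42, the Ramp3 and Calca probes between 1.06 and 1.13, and the 3 Ramp1 probes on both sides of 0.

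The promoters of the genes that stood furthest apart are shown because Calcrl on the one hand and Ramp3 and Calca on the other differed in opposite directions. They are the 250 bases before the RefSeq transcript start, build GRCm38.p6, 5′ to 3′ on the gene's strand, and the table held promoters for 5 of the 7 genes. Capitals mark matches, on either strand, to TGACG (the half-site of cyclic AMP response elements), ACGTG or GCGTG (the core of hypoxia response elements) and GGGCGG (the GC box bound by Sp and Krüppel-like factors). Some match was found in 17.8%, 38.6% and 32.7% of all 32851 promoters of that length, in this order. The Calcrl promoter held 1 GC box, 83 bases before the start. That of Ramp3 held 3 GC boxes and 2 hypoxia cores, 219 and 65 bases before the start. The Calca promoter held the cyclic AMP half-site, 65 bases before the start, and neither of the others. The Adm promoter, not printed, held 2 hypoxia cores and 1 GC box, and Ramp1 had no match. A match is a run of letters, and nothing was measured at these promoters.
Calcrl, chr2:84425267-84425516, minus strand: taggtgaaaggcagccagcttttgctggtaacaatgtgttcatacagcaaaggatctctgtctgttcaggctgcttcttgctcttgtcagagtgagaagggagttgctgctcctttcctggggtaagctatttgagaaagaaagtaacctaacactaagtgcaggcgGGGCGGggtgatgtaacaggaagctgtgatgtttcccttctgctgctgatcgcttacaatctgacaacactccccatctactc
Ramp3, chr11:6658283-6658532, plus strand: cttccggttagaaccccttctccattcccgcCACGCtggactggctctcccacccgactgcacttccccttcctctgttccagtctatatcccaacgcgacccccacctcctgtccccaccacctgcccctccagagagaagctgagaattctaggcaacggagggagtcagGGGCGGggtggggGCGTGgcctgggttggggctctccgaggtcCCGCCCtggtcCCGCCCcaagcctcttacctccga
Calca, chr7:114636358-114636607, minus strand: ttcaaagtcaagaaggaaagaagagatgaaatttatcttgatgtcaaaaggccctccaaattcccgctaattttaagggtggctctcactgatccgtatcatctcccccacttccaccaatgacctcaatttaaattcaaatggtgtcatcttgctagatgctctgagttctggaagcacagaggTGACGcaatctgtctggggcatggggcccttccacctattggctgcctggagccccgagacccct

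Within each genotype the order of the 4 mice was the same for Calcrl, for Ramp2 and for the mean of endothelial markers. The order was not particular to endothelial markers. The mean of the 10 lung identity genes, Pecam1 among them, had it too. It was 5.39, 4.98, 5.23 and 5.07 for wild-type and 5.32, 4.76, 5.39 and 4.79 for knockout mice. The mean of the cardiac muscle markers had the reverse order in both groups. The mean of 20 pan-endothelial markers, such as the junction genes Pecam1, Cdh5 and Cldn5 and the receptor genes Kdr and Tek, was 3.50, 3.001, 3.40 and 3.36 for wild-type and 3.44, 2.94, 3.62 and 3.01 for knockout mice. Wild-type replicate 2 and knockout replicates 2 and 4 were the low ones, and within their groups they were also the low ones for Ramp2 and Calcrl. The ranges of the endothelial mean overlapped between genotypes, with 8 markers higher and 12 lower and a median difference of -0.07, beside -0.03 over all genes tested. That median ran from -0.17 to 0.04 when 1 sample was left out, the highest being without knockout replicate 2, and was 0.14 with the cardiac marker mean, described further on, as a covariate. Calcrl minus this mean was -3.91, -4.40, -3.86 and -4.44 in wild-type and -5.40, -5.54, -5.54 and -5.58 in knockout lungs. On this scale the SD was 0.080 among knockout lungs, against 0.37 for Calcrl alone, and 0.31 among wild-type lungs, against 0.49. The difference between genotypes was -1.36. The same quantity differed by 0.17 for Ramp2 and by 1.19 for Ramp3. In knockout lungs the deviations of Calcrl from its group mean were 0.30, -0.34, 0.34 and -0.30. Those of the endothelial mean were 0.19, -0.31, 0.37 and -0.24, and those of the lung identity mean 0.26, -0.31, 0.33 and -0.27. The small spread among knockout lungs was thus not particular to the endothelial list.

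**Figure D3:**
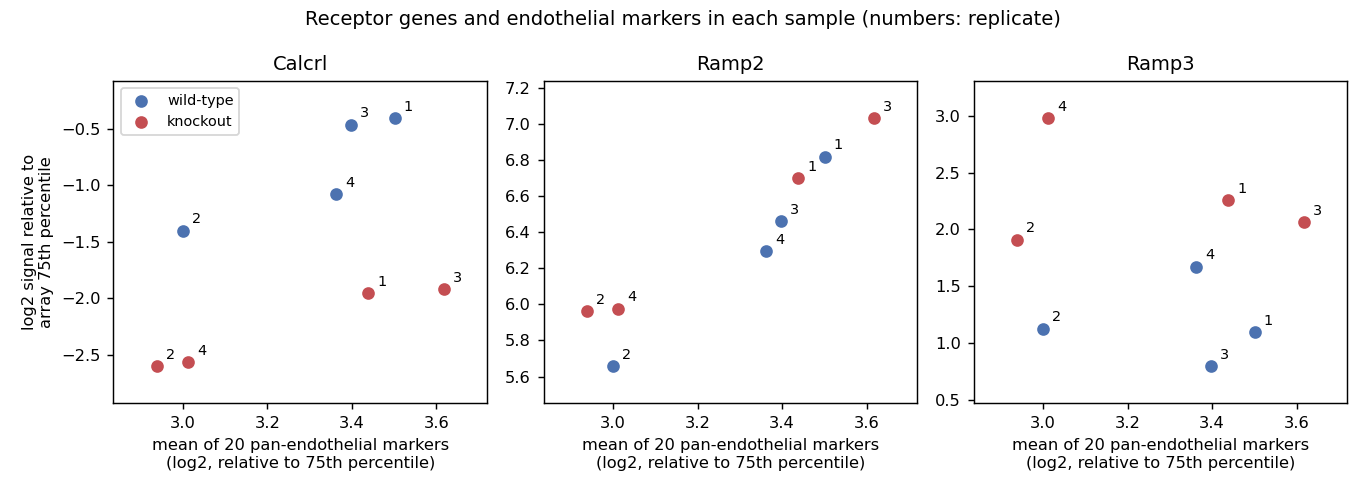
Log2 signal of Calcrl, Ramp2 and Ramp3 (y axes) against the mean log2 signal of 20 pan-endothelial markers (x axis) in each of the 8 lungs, with replicate numbers. Calcrl forms a wild-type and a lower knockout row at like endothelial levels, the Ramp2 points of both genotypes share 1 rising band, and the knockout lungs lie higher for Ramp3.

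Markers of endothelial subsets differed in both directions. Of 12 capillary markers 3 were higher and 9 lower (median -0.20), with a list mean from 2.31 to 2.86 in wild-type and 2.12 to 2.69 in knockout lungs. Their median was -0.08 without wild-type replicate 1, -0.08 without knockout replicate 4 and 0.026 with the cardiac covariate. The apelin receptor gene Aplnr (-0.72 ± 0.19), Sema3c (-0.53 ± 0.19) and the receptor kinase gene Kit (-0.33 ± 0.17, SE) had the smallest p. Of 11 arterial and venous markers 5 were higher and 6 lower (median -0.09), led by the Notch ligand gene Dll4 (-0.42 ± 0.11), Vwf, which encodes von Willebrand factor (-0.48 ± 0.14), and the connexin gene Gja5 (-0.69 ± 0.32, SE). This median turned to 0.07 without wild-type replicate 1 and to 0.026 without knockout replicate 2. Of 9 lymphatic markers 6 passed the filter, 3 higher and 3 lower (median -0.05), with Tbx1 at 0.82 ± 0.28, the hyaluronan receptor gene Lyve1 at 0.37 ± 0.14 and Thy1 at -0.31 ± 0.14 (SE). Prox1, the defining transcription factor of lymphatic endothelium, did not pass the filter. In the pan-endothelial list the smallest p belonged to Tie1 (-0.40 ± 0.21), Icam2 (-0.46 ± 0.27) and Egfl7 (0.35 ± 0.21, SE). No member of these 4 lists was past the threshold (limma, adjusted p at least 0.0906), and an unadjusted p under 0.05 was reached by 2 on the higher and 4 on the lower side. The higher ones were 2 of 6 lymphatic markers, and the lower ones 2 of 12 capillary and 2 of 11 arterial and venous markers.

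Markers of other cells that can express members of the system moved as follows, and their part in the differences above was not tested. Of 13 neuroendocrine and neuronal markers, 9 passed the filter and 7 were higher (median 0.37). Their mean ran from -2.65 to -1.98 in wild-type and from -2.38 to -1.19 in knockout lungs, with knockout replicate 4 highest. Without that lung the median was 0.13. The granule gene Chgb was higher in all knockout lungs (0.70 ± 0.24) and the neuronal filament gene Prph differed by 1.53 ± 0.86 (SE). Prph was well above background on only 3 wild-type arrays. Wild-type replicate 4 read -5.70, under the lowest signal well above background on its array (-5.27), and knockout replicate 4 was the highest at -0.70. Chga, Insm1, Pcsk1 and Scg2 did not pass the filter. Of 15 smooth muscle and pericyte markers 12 were higher (median 0.36), with means of 0.79 to 1.51 in wild-type and 1.08 to 2.03 in knockout lungs and Synpo2 (1.76 ± 0.53), Myh11 (1.08 ± 0.47) and Actg2 (1.04 ± 0.46, SE) in front. This median was 0.17 without knockout replicate 4 and -0.018 without the 3 lungs of highest cardiac signal described next.

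Among markers of cardiac muscle, 12 of the 13 that passed the filter were higher (median 1.67). Their mean was -1.08, 3.51, 0.48 and 0.59 for wild-type and 1.80, 3.72, 0.81 and 3.59 for knockout mice, with Myh6 at 2.001 ± 1.07, Myl3 at 1.65 ± 0.90 and Myl2 at -0.54 ± 0.25 (SE). The 3 lungs with the most cardiac signal were the same 3 that had the lowest endothelial and lung identity means. Without those 3 lungs (an alternative added once the data were known) the differences were -1.29 for Calcrl, 0.97 for Ramp3 and 1.26 for Calca, and with the cardiac mean as a covariate they were -1.05, 1.06 and 0.97. That covariate moved the difference of Ramp2 from 0.11 to 0.59, which was past the threshold with limma. Without the 3 lungs the difference of Ramp2 was 0.34 and not past it.

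Myeloid and alveolar type 1 markers were mostly lower. All 14 monocyte and macrophage markers that passed the filter were lower (median -0.68), and their mean ran from 2.55 to 2.89 in wild-type and from 1.80 to 2.35 in knockout lungs without overlap. Plac8 (-0.84 ± 0.16), the Fc receptor gene Fcgr1 (-1.03 ± 0.22) and Treml4 (-1.15 ± 0.26, SE) led them. Of 12 neutrophil markers 11 passed the filter, 4 higher and 7 lower (median -0.28). Their means ran from 5.03 to 5.64 in wild-type and from 4.86 to 5.20 in knockout lungs. The smallest p belonged to the chemokine receptor gene Cxcr2 (-1.10 ± 0.24), Retnlg (-0.57 ± 0.17) and the decoy receptor gene Il1r2 (-0.81 ± 0.30, SE). The neutrophil marker Ly6g and the monocyte marker Ly6c2 did not pass the filter. All 12 alveolar type 1 markers were lower (median -0.41; means 4.13 to 4.73 in wild-type and 3.25 to 4.32 in knockout lungs), with Igfbp2 at -1.28 ± 0.30, Akap5 at -0.88 ± 0.25 and the water channel gene Aqp5 at -0.44 ± 0.15 (SE). Lung identity genes were higher in 5 of 10 cases (median -0.05), with Sftpa1 at -0.54 ± 0.21, Napsa at -0.33 ± 0.13 and Scgb1a1 at 0.16 ± 0.072 (SE). None of the members of the neuroendocrine, muscle, cardiac, myeloid, alveolar or identity lists was past the threshold (limma, adjusted p at least 0.0625). An unadjusted p under 0.05 was reached by 3 on the higher and 22 on the lower side, beside 10.1% and 13.5% of all genes tested. The 3 were 1 of 9 neuroendocrine and 2 of 15 smooth muscle markers. The 22 were 12 of 14 monocyte and macrophage, 5 of 12 alveolar type 1, 3 of 11 neutrophil and 2 of 10 identity genes.

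Other ligands, receptors and processing enzymes of the calcitonin family differed in both directions. Of 12 tested, 6 were higher and 6 lower (median -0.07), and 0 were past the threshold (limma, adjusted p at least 0.132), while at an unadjusted p under 0.05 there were 3 on the lower and 0 on the higher side. Those 3 were Crcp, whose product couples Calcrl to Gs signalling (-0.20 ± 0.067), the peptidase gene Mme, which encodes neprilysin (-0.70 ± 0.26), and the peptidase gene Dpp4 (-0.54 ± 0.19, SE). Crcp ran from 2.10 to 2.21 in wild-type and from 1.93 to 2.05 in knockout lungs, so its groups did not overlap though the difference was small. The related peptide gene Adm2 differed by 0.05 ± 0.39 and the calcitonin receptor gene Calcr, the other partner of the RAMPs, by -0.32 ± 0.20 (SE). The scavenging receptor gene Ackr3 differed by 0.02 ± 0.21 and the orphan receptor gene Gpr182 by -0.54 ± 0.38 (SE). For Gpr182, wild-type lungs lay between 1.76 and 1.98, and knockout replicate 3 at 2.52 stood above them while the other knockout lungs lay between 0.52 and 1.13. Of the processing enzymes, the amidating enzyme gene Pam differed by 0.92 ± 0.77, the carboxypeptidase gene Cpe by 0.72 ± 0.42, Ece1 by 0.20 ± 0.24 and Ide by 0.07 ± 0.11 (SE). Iapp, the amylin gene, did not pass the filter.

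Of 14 secretin-family receptor genes, the family of Calcrl, 10 were tested, 6 higher and 4 lower (median 0.08). Vipr1, which encodes a receptor for vasoactive intestinal peptide that also signals through Gs, was at -0.59, -0.58, -0.49 and -0.71 in wild-type and -0.02, 0.37, 0.05 and 0.54 in knockout mice. All knockout lungs were above all wild-type lungs, by 0.83 ± 0.13 (SE), and Vipr1 missed the threshold (limma, adjusted p = 0.0568). It was past it with normexp (0.76), with no filter on dim probes, with a filter on all 8 arrays, with an intensity trend, with array weights and with the cardiac covariate (0.73), and not past it in the other settings. The difference was 0.54 with the mean of the gene's probes and 0.61 without the 3 lungs of highest cardiac signal. Gcgr, the glucagon receptor gene, differed by 0.30 ± 0.16 (SE). Of this list 0 were past the threshold, and at an unadjusted p under 0.05 there were 1 higher and 0 lower.

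Of 37 genes of Gs, cyclic AMP and receptor desensitisation, 15 were higher and 22 lower (median -0.07). With limma 0 were past the threshold, and 10 were lower and 1, the adenylyl cyclase gene Adcy6, was higher at an unadjusted p under 0.05. The 10 include Rapgef4, which passed the filter through its wild-type arrays alone. Grk2, the kinase that desensitises activated receptors, read 4.30, 4.29, 4.21 and 4.11 in wild-type and 3.90, 3.79, 3.62 and 3.54 in knockout lungs. These groups did not overlap, with a difference of -0.51 ± 0.0985 (SE; limma, adjusted p = 0.0625). Pde4b, a phosphodiesterase that breaks down cyclic AMP, differed by -0.52 ± 0.14 (SE; limma, adjusted p = 0.0974). Rapgef4, which encodes the cyclic AMP sensor EPAC2, was well above background on 4 wild-type arrays and on 0 knockout arrays, so it has only a bound in the knockout lungs. That bound leaves no fold to give.

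**Figure D4:**
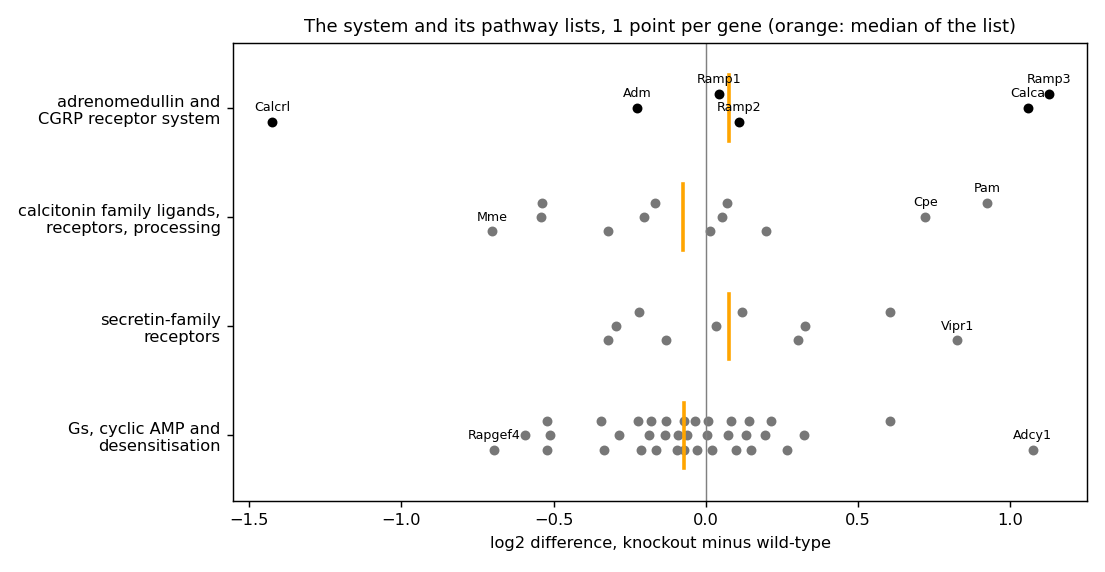
Log2 difference, knockout minus wild-type (x axis), of the 6 tested members of the system (black) and of the genes of 3 pathway lists (grey), 1 point per gene, with the median of each list in orange. Calcrl lies further below 0 than any gene of the 3 lists, and the list medians lie between -0.07 and 0.08.

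The genes whose profile over the 8 arrays was nearest to that of Calcrl were Arhgap40, Igfbp2, Nxpe4, Arhgap20 and A330009N23Rik. Likeness was the root mean square difference between log2 profiles centred on their means, which was 0.21, 0.27, 0.27, 0.29 and 0.29 for these 5 genes. This measure holds the difference between genotypes, which chose Calcrl, and is a description. Arhgap40, the nearest, read -2.21, -3.27, -2.80 and -2.90 in wild-type and -4.33, -4.50, -3.81 and -4.65 in knockout lungs. As for Calcrl, wild-type replicate 1 was the highest and wild-type replicate 2 the lowest of its group. Igfbp2, which encodes an insulin-like growth factor binding protein, is also on the alveolar type 1 list. The groups of Nxpe4 and Arhgap20 overlapped.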

How the data were processed

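Total RNA of 8 whole lungs, 4 wild-type and 4 knockout, was labelled with Cy3 for single-colour arrays, per the labels' protocols. Agilent Feature Extraction 10.7.1.1 made the spot values, per the file headers and the submitters' notes. The deposited intensity values are background-subtracted and detrended, and mean and local background intensity stand beside them. A deposited table gives the authors' log2 values. Its columns all had a median of 5.64 and correlated with log2 processed signal at r of at least 0.999, the sources used here do not say how it was made, and it served as an alternative.

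Control spots were left out, and so were outlier spots among the rest (154 to 245 per array). Repeat spots of 1 probe were averaged, and the 75th percentile of each array was subtracted from log2 processed signal. Probes absent from an array (21) were left out. A gene with several probes was represented by its brightest on average. No probe was saturated. Probe names were updated by RefSeq accession (26574 probes), symbol (2601) or synonym (492) from a GRCm38.p6 table used for names only, and 25993 kept the file's name. All 24437 genes were fitted with limma 3.58.1 in R 4.3.3 (lmFit, eBayes, two-sided), with Benjamini-Hochberg adjusted p under 0.05 as the threshold. The fit was tested on simulated data with independent noise for each gene and array. Such data hold no signal shared by many genes, such as that of the cardiac markers, so its effect on the fit was not tested there. Precision is limited by the number of arrays, 4 per group.

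The members and lists were chosen with earlier results of these data known. Named are all members, every gene of the calcitonin family list, up to 3 genes of each other list with the smallest p and the 5 genes with the profile nearest to Calcrl, except that some of these are not reported here. Alternatives were normexp (offset 50), quantile normalization, median centring, the deposited table, other filters, averaging over probes of a gene, single probes, an intensity trend, array weights, the replicate number as a block, leaving out each sample, and 2 settings on the cardiac markers added after the values were seen. A slide block could not be fitted with 1 slide. Promoter sequences are from RefSeq, GRCm38.p6. Figures were drawn with matplotlib 3.10.9.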

Additional observations from a re-analysis of the deposited data

Results flagged for a closer look

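In 4 of 158 groups of 4 samples 1 sample stood apart from the other 3 by more than Dixon's critical value, where chance gives about 1 in 20. None was a member of the system. Crcp read 2.10 in wild-type replicate 3, with the next value at 2.20. Ackr3 read 4.66 in wild-type replicate 4 and at most 4.18 in the other wild-type lungs. Gcgr read -2.16 in wild-type replicate 1, with the next value at -2.45, and Treml4 read 1.21 in knockout replicate 2 and at most 0.23 in the other knockout lungs.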

How the results depend on the processing

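The difference of Calcrl was below 0, and those of Ramp3 and Calca above 0, as reported, in all 12 other settings and all 8 fits that left out 1 sample. Without each sample in turn Calcrl ranged from -1.61 to -1.28, Ramp3 from 0.90 to 1.29, Calca from 0.80 to 1.26, Ramp1 from -0.11 to 0.28, Ramp2 from -0.11 to 0.28 and Adm from -0.45 to -0.04. Over the 12 other settings Ramp1 ranged from -0.24 to 0.21, Ramp2 from 0.06 to 0.59 and Adm from -0.38 to 0.08. Adm was above 0 without the 3 lungs of highest cardiac mean, and Ramp1 was lowest with the cardiac covariate.

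The number of genes past the threshold was not stable, and for the shifts below the cause was not tested. Against 8 that rose and 7 that fell it was 209 and 271 with normexp, 13 and 23 with median centring, 2710 and 786 with no filter on dim probes (where many probes hold surrogate values), 59 and 68 with a filter on all 8 arrays, 160 and 258 with an intensity trend, 160 and 190 with array weights, 637 and 944 with the cardiac mean as a covariate, and 0 and 0 without the 3 lungs of highest cardiac mean. With the mean of a gene's probes 4 rose. Leaving out each sample gave 1 to 11 that rose and 0 to 12 that fell, with 0 that fell without replicate 1 or 2 of either group. Of the 7 genes of the system, 1, Calcrl, was past the threshold with normexp, with an intensity trend and with array weights. With no filter there were 2 (Calcrl and Ramp3) and with the cardiac covariate 2 (Calcrl and Ramp2), against 0 in each fit without 1 sample. Calcrl chose the system in this same contrast, so nothing is read from these counts. Secretin-family receptors past it, on the higher side, numbered 1 with normexp, a filter on all 8 arrays, an intensity trend, array weights and the cardiac covariate, and 2 with no filter. Genes of Gs and cyclic AMP past it, on the lower side, numbered 1 with normexp, an intensity trend and array weights, and 2 with no filter and with the cardiac covariate.

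The lymphatic median, -0.05, ranged from -0.19 to 0.058 without 1 sample and was 0.13 without the 3 lungs of highest cardiac mean and 0.11 with the covariate. The covariate moved the arterial and venous median, -0.09, to 0.18, and without 1 sample it ranged from -0.23 to 0.07. The neutrophil median, -0.28, was -0.11 without wild-type replicate 2, -0.12 without knockout replicate 2, -0.18 without knockout replicate 4 and 0.070 without those 3 lungs. The covariate moved the alveolar type 1 median from -0.41 to -0.18. Without those 3 lungs the capillary median was -0.015 and the neuroendocrine median 0.11. The lung identity median, -0.05, ranged from -0.18 to 0.06 without 1 sample, and the cardiac median, 1.67, from 1.1015 to 2.60.

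Same-numbered samples of the 2 groups deviated together with correlations of 0.13, 0.47, 0.0076 and -0.29 for numbers 1 to 4. These correlations do not settle whether the numbers pair the mice, and the main fit did not pair them. With the replicate number as a block (replicate block) 12 genes rose and 34 fell, and 1 gene of the system, Calcrl, was past the threshold.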
